A study of Mus musculus with 2 samples.

Results

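The genes described here are 34 genes whose products copy DNA or prepare a cell to copy it. They were taken by symbol, and all 34 were found in both deposited tables, which hold 22480 gene symbols each. The study compared single cells of mouse spinal cord from 2 libraries, 1 from sham cords and 1 from cords 3 days post injury (3 dpi). Each library pooled 5 male and 5 female C57BL/6 mice aged 8 weeks, and both came from a cord segment of 8 mm around the injury site that was digested to a cell suspension and run on the 10X Chromium 3′ kit v.3. The labels name no transgene and no drug. They do not say how the cord was injured. Cells were digested out of the tissue, so each class holds only cells that survived this step.

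DNA replication begins when the loading factors Cdc6 and Cdt1 place the ring of Mcm2 to Mcm7 on the DNA in late mitosis and G1. At the start of S phase, Cdc45 and the GINS proteins turn this ring into a running helicase, and the polymerases copy DNA behind it on the sliding clamp Pcna. Most of these genes are targets of E2F factors and are transcribed in late G1 and S phase. Resting microglia, endothelial cells and fibroblasts of the adult cord seldom divide, whereas oligodendrocyte precursors go on dividing in the uninjured adult cord.

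The libraries differed before any gene was compared. The sham library held 76889038 UMIs (unique molecular identifiers, 1 for each captured RNA molecule) in 10138 barcodes, a median of 5522 each, and the 3 dpi library 149291783 UMIs in 13594 barcodes, a median of 9117. There was 1 library per group, so no test and no p-value is given, and what the injury did cannot be told apart from any other difference between the 2 libraries. Brackets hold 95% intervals, which take in counting error alone. The libraries shared 39 barcode sequences. Cells were grouped into classes without the use of cell cycle genes, and the clusters of a class were mostly of 1 library: microglia-like cells were clusters 8, 10 and 30 in sham and clusters 5 and 6 at 3 dpi, precursor-like cells cluster 21 in sham and clusters 15 and 16 at 3 dpi, and endothelial-like cells cluster 3 in sham and cluster 20 at 3 dpi. The class markers were present in both libraries but not at equal level. The summed level of the 10 microglia markers was 18953 CPM (UMIs of a gene per 1000000 UMIs of the class) in sham and 5178 CPM at 3 dpi, that of the 9 oligodendrocyte precursor markers 13304 and 3826 CPM, and that of the 10 endothelial markers 25457 and 8717 CPM. The 9 monocyte/macrophage markers summed to 14.8 CPM in sham microglia-like cells (5 of 9 seen) and 1643 CPM at 3 dpi (9 of 9 seen). Of these, Fn1 was at 3.21 and 1339 CPM, Arg1 at 0 and 210 CPM and Thbs1 at 5.20 and 77.5 CPM, while Chil3, Plac8, Ms4a4c, F10, Ccr2 and Ly6c2 were between 0.24 and 5.96 CPM at 3 dpi. The 7 border-associated macrophage markers summed to 7.08 and 381 CPM, of which Pf4 made 3.32 and 282 CPM. The part of other macrophages in the 3 dpi microglia-like class was not tested.

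To set cells of unlike depth side by side, each cell was thinned to 1000 UMIs, shallower cells were left out, and a cell was counted when 3 or more different members had a UMI. At this equal depth 37 of 9075 sham cells (0.408% [0.287 to 0.562]) and 1174 of 11267 3 dpi cells (10.4% [9.862 to 10.999]) held 3 or more members. In microglia-like cells, the resident phagocytes, these were 7 of 2096 sham cells (0.334% [0.134 to 0.687]) and 509 of 2555 3 dpi cells (19.9% [18.4 to 21.5]), a share 59.7-fold [28.7 to 149] higher at 3 dpi. In oligodendrocyte precursor-like cells the sham share was already 5.78% [3.34 to 9.21] (16 of 277 cells), and the 3 dpi share was 33.6% [30.4 to 36.9] (285 of 848), 5.82-fold [3.52 to 10.3] higher. Endothelial-like cells, which line the vessels, went from 2 of 1352 cells (0.148% [0.0179 to 0.533]) to 35 of 340 (10.3% [7.28 to 14.0]), a ratio of 69.6 [17.9 to 597] that rests on 2 sham cells. Over 20 other thinning draws the 3 dpi shares ranged from 17.9% to 20.3% in microglia-like, 33.3% to 37.3% in precursor-like and 7.94% to 13.2% in endothelial-like cells, and the sham shares from 0.0954% to 0.477%, 2.89% to 6.14% and 0.0740% to 0.666%.

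Myelin-forming oligodendrocytes do not divide and served as the background. Of oligodendrocyte-like cells, 0.252% [0.126 to 0.451] in sham (11 of 4363, median depth 7643 UMIs) and 0.830% [0.455 to 1.39] at 3 dpi (14 of 1686, median 8754 UMIs) held 3 or more members. The sham shares of microglia-like and endothelial-like cells lay within the interval of the sham background. The 3 dpi shares of both classes and both shares of precursor-like cells lay above the interval of the background in their library. Without thinning the shares were 9.10% and 80.1% in microglia-like cells (median depths 3816 and 13741.5 UMIs), 33.6% and 83.8% in precursor-like cells (5164 and 11714.5 UMIs), 12.9% and 67.0% in endothelial-like cells (3218 and 16822.5 UMIs) and 35.2% and 42.7% in oligodendrocyte-like cells. Without thinning the background was thus as high as the share of sham precursor-like cells.

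**Figure D1:**
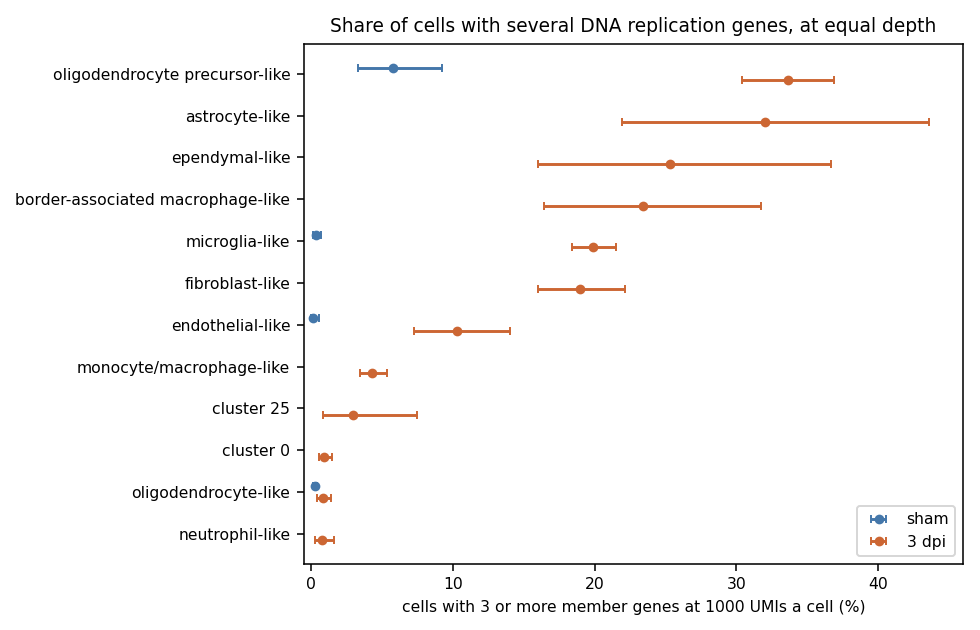
Share of cells with 3 or more of the 34 genes after thinning to 1000 UMIs a cell (x axis, %), by cell class (rows) and library (blue, sham; orange, 3 dpi); bars are 95% Clopper-Pearson intervals. Classes with fewer than 50 cells in a library have no point there. Precursor-like cells have the highest share in both libraries (5.78% and 33.6%), and oligodendrocyte-like and neutrophil-like cells stay under 1%.

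The classes that were present in number only at 3 dpi spread over the same range. Fibroblast-like cells, which make collagen matrix, held 3 or more members in 18.9% [16.0 to 22.1] of 660 cells. Their clusters 17, 22 and 31 gave 23.2% [18.9 to 27.8], 14.2% [9.76 to 19.6] and 12.3% [6.08 to 21.5]. Border-associated macrophage-like cells gave 23.4% [16.4 to 31.7] (30 of 128), and in sham 0% [0 to 7.40] (0 of 48). Their own markers summed to 5485 CPM at 3 dpi and the monocyte/macrophage markers to 3960 CPM. The small astrocyte-like and ependymal-like classes gave 32.1% [21.9 to 43.6] (25 of 78, with 40% of the cells too shallow to count) and 25.3% [16.0 to 36.7] (19 of 75). Among leukocytes from blood the shares were lower. Monocyte/macrophage-like cells, 2 clusters that differed much, gave 4.33% [3.45 to 5.36] (80 of 1849), neutrophil-like cells 0.760% [0.280 to 1.65] (6 of 789, with 45.9% of cells too shallow), and cluster 25, whose leading genes are of B cells (Igkc, Cd79a) and T or NK cells (Trbc2, Gzma), 2.99% [0.819 to 7.47] (4 of 134). Cluster 0, which had markers of both macrophage classes and was led by Pf4, Arg1, Gpnmb and Spp1, was the largest group of 3 dpi cells after microglia-like cells, with 1907 cells, and 0.944% [0.560 to 1.49] of them held 3 or more members.

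Within the monocyte/macrophage-like class 69 of the 80 cells with 3 or more members lay in 1 cluster, and this cluster had none of the 9 monocyte/macrophage markers among its 10 leading genes. Cluster 14, led by the antigen-presentation (MHC class II) genes Cd74, H2-Aa, H2-Eb1 and H2-Ab1, gave 13.4% [10.6 to 16.6] (69 of 515), and cluster 4, led by Arg1, Ccl6 and Chil3, 0.825% [0.412 to 1.47] (11 of 1334). The summed member level differed alike, 1289 CPM in cluster 14 and 345 CPM in cluster 4. The 9 monocyte/macrophage markers summed to 2731 CPM in cluster 14 and 11123 CPM in cluster 4, and the 8 dendritic cell markers to 185 CPM (8 of 8 seen) and 12.3 CPM (5 of 8 seen). The class share is thus mostly that of cluster 14, whose name rests on its marker sums and not on its leading genes. At equal depth the 9 monocyte/macrophage markers summed to 3100 CPM in the 80 cells with 3 or more members and 9668 CPM in the other cells of the class, and the 7 border-associated macrophage markers to 950 and 3676 CPM. These small shares vary with the random thinning. Over 20 other draws the monocyte/macrophage-like share ranged from 3.30% to 4.11% and that of cluster 14 from 9.13% to 12.04%, both below the draw given above.

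Of the 1174 3 dpi cells with 3 or more members, 43.4% [40.5 to 46.2] were microglia-like, 24.3% [21.8 to 26.8] precursor-like, 10.6% [8.94 to 12.6] fibroblast-like and 6.81% [5.44 to 8.41] monocyte/macrophage-like. Precursor-like cells were only 7.53% of the cells counted at 3 dpi and microglia-like cells 22.7%. In sham, 16 of the 37 such cells (43.2% [27.1 to 60.5]) were precursor-like, 11 oligodendrocyte-like and 7 microglia-like.

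**Figure D2:**
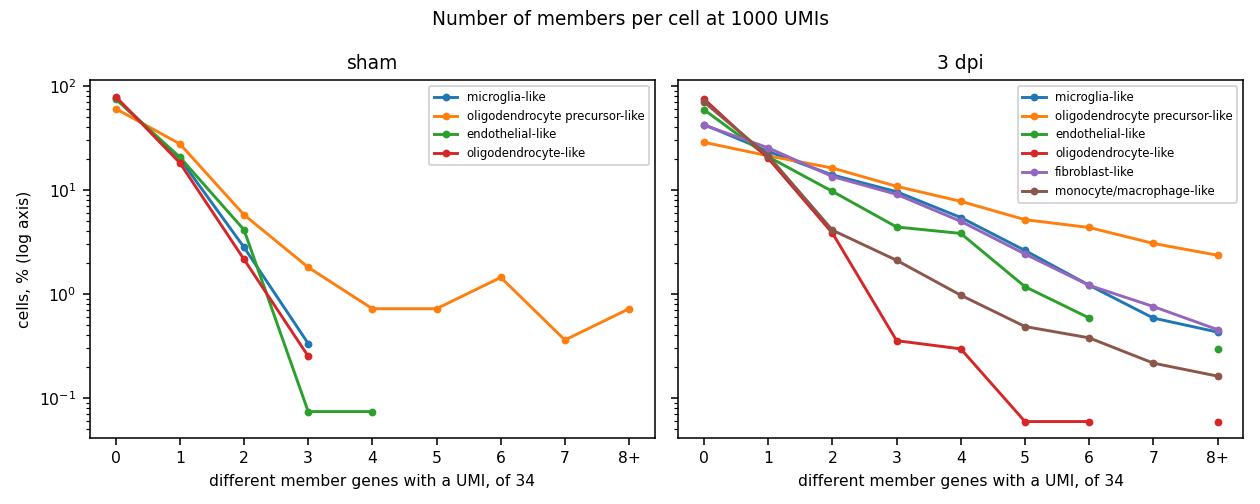
Distribution of the number of different members seen in a cell at 1000 UMIs (x axis, of 34) as a share of cells (y axis, %, log axis), for sham (left) and 3 dpi (right); each line is a cell class, and a value of 0 is not drawn. In sham only precursor-like cells reach 5 or more members, and at 3 dpi the lines of precursor-like, microglia-like and fibroblast-like cells lie above that of oligodendrocyte-like cells from 2 members on.

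The number of members per cell also told the classes apart at its upper end. No sham microglia-like cell held more than 3 members and no sham endothelial-like cell more than 4, while sham precursor-like cells reached 9. At 3 dpi the highest numbers were 9 in microglia-like and fibroblast-like cells, 8 in endothelial-like cells, 10 in monocyte/macrophage-like cells and 11 in precursor-like and ependymal-like cells. With the stricter count of 5 or more members, 4.85% of 3 dpi microglia-like, 14.98% of precursor-like, 4.85% of fibroblast-like, 2.06% of endothelial-like and 1.24% of monocyte/macrophage-like cells remained, against 3.25% of sham precursor-like cells and 0% of sham microglia-like and endothelial-like cells.

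Summed over all 34 genes and all cells of a class, the member level was 278 CPM in sham and 1525 CPM at 3 dpi in microglia-like cells, 5.49-fold [5.27 to 5.71] higher. It was 709 and 2699 CPM in precursor-like cells (3.81-fold [3.58 to 4.05] higher), 304 and 1185 CPM in endothelial-like cells (3.90-fold [3.70 to 4.10] higher) and 244 and 327 CPM in oligodendrocyte-like cells (1.34-fold [1.30 to 1.39] higher). At 3 dpi the sums were 1625 CPM in fibroblast-like, 1702 CPM in border-associated macrophage-like, 682 CPM in monocyte/macrophage-like, 373 CPM in neutrophil-like cells and 329 CPM in cluster 0. The sums of neutrophil-like cells and of cluster 0 were thus close to that of 3 dpi oligodendrocyte-like cells. In summed RNA, more dividing cells and more RNA per dividing cell cannot be told apart. The share of cells, given first, does not separate them either. At equal depth a cell with more member RNA is more likely to pass the count. The share is thus not a count of dividing cells.

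Gene by gene, a member counted as measured where either library reached 20 CPM. It was called higher or lower when the levels, each raised by 10 CPM, differed 2-fold. A member called within 2-fold is so by this rule, and its plain ratio can be larger. Here and in the counts by this rule below, a gene under 20 CPM in sham could be called higher but never lower. In microglia-like cells 23 of 25 measured members were higher at 3 dpi and 0 lower, where 11.7% of all 6207 genes measured in the class were higher and 16.4% lower; the median log2 ratio was 1.77 over the members and -0.15 over all genes. In precursor-like cells 23 of 30 were higher and 0 lower (7.25% and 13.7% of 8178 genes; median 1.45 against -0.26). In endothelial-like cells 16 of 23 were higher and 0 lower (8.33% and 13.4% of 7061 genes, median 1.27 against -0.25). Of the members at 20 CPM in sham, Mcm3 was higher and Pcna and Slbp within 2-fold in microglia-like cells. In endothelial-like cells Dut was higher and Mcm6, Pcna and Slbp within 2-fold. In precursor-like cells Mcm5, Mcm6, Mcm7, Pcna, Pclaf, Rfc4, Lig1, Rrm1 and Dut were higher. Mcm4, Rfc3, Rpa2, Prim1 and Slbp were within 2-fold there. The other measured members of these classes reached 20 CPM at 3 dpi alone. In oligodendrocyte-like cells 0 of the 4 measured members, Pcna, Rpa2, Dut and Rrm1, were higher or lower (5.27% and 4.05% of 6303 genes; median 0.03). Of the members, 16 were higher in all 3 of the former classes, namely Mcm2, Mcm3, Mcm5, Mcm7, Gins2, Pclaf, Rfc4, Lig1, Tyms, Rrm1, Rrm2, Tk1, Dut, E2f1, Uhrf1 and Chaf1a. This list hangs on the endothelial-like calls, which went from 16 to 8 when all cells were thinned to 1000 UMIs first, and in cells of 3000 to 8000 UMIs 1 member, Pclaf, was higher in all 3 classes. Most members were not measured in endothelial-like cells of that range. Another 8 were higher in none of the 3: Slbp was measured in all of them, Cdc45, Prim1 and Pold1 in precursor-like cells only, and Gins1, Cdc6, Ccne1 and Ccne2 in none. A member not measured in a class got no call there, whatever its plain ratio. In microglia-like cells this held for Cdc45 (16.6-fold [8.36 to 38.6]) and Prim1 (8.52-fold [5.47 to 14.0]) among others.

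**Figure D3:**
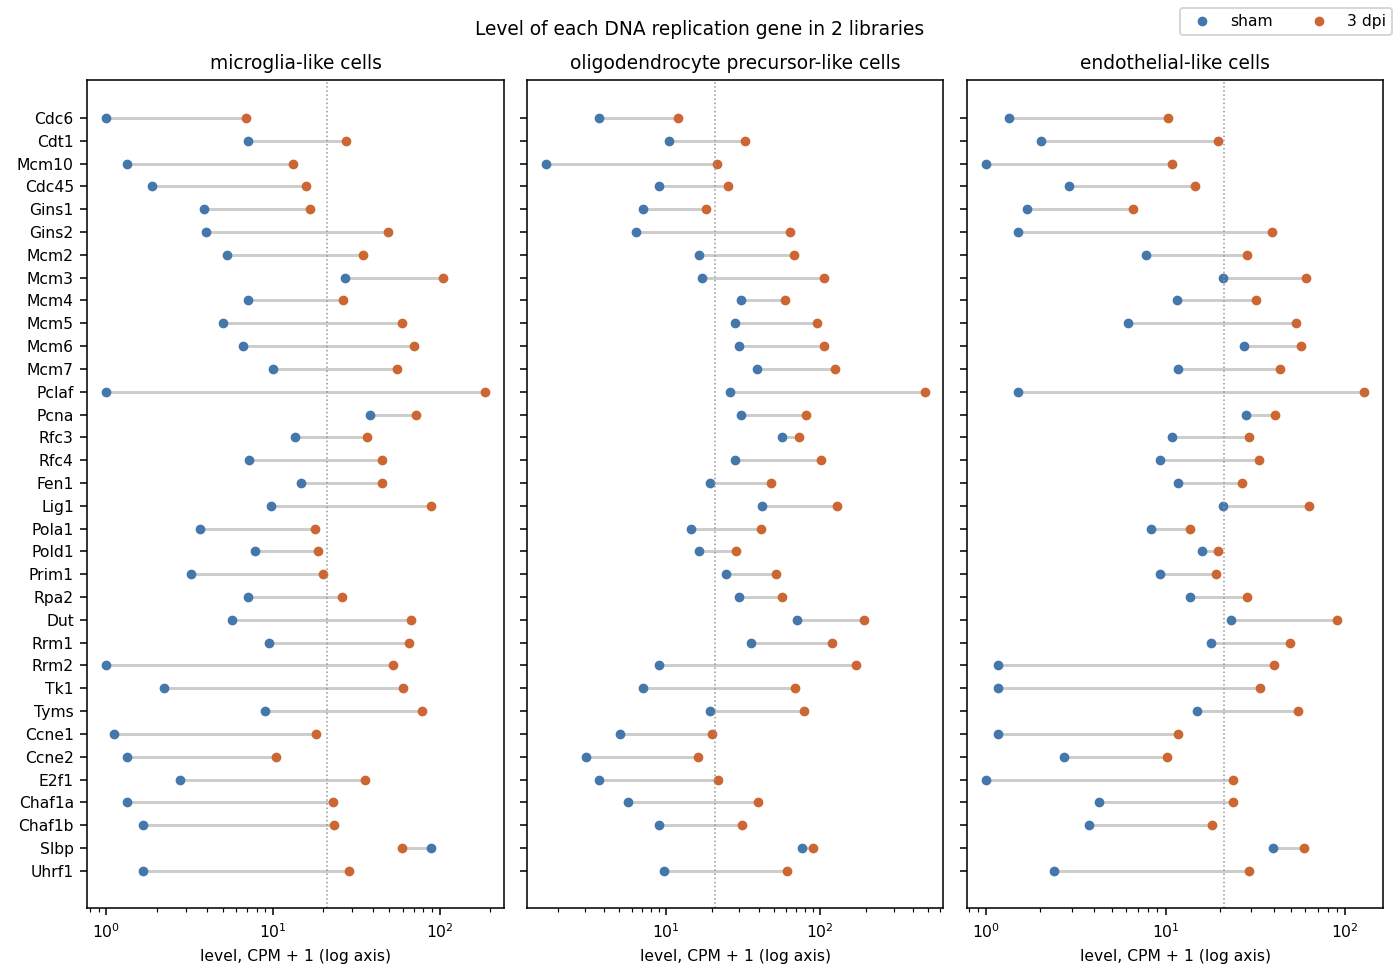
Level of each member in sham (blue) and at 3 dpi (orange) in 3 cell classes; the x axis is CPM + 1 on a log axis, rows are genes in the order of their roles from loading to chromatin, and the dotted line marks 20 CPM, the level at which a gene was called measured. Nearly every orange point lies to the right of its blue point; Slbp in microglia-like cells lies to the left (87.5 CPM in sham, 58.5 CPM at 3 dpi).

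The loading factors stayed near or below the 20 CPM line. In microglia-like cells Cdt1, which brings the Mcm ring to the DNA, was at 6.09 CPM in sham and 26.4 CPM at 3 dpi, and in precursor-like cells at 9.45 and 31.7 CPM. Cdc6, its partner, was seen in 0 sham microglia-like UMIs and stayed below 20 CPM in all 3 classes (5.93 CPM in microglia-like and 11.1 CPM in precursor-like cells at 3 dpi). Mcm10, which helps to start the helicase, reached 20.4 CPM in precursor-like cells at 3 dpi (1 UMI in sham, 30.3-fold [5.37 to 1200]) and 12.2 CPM in microglia-like cells.

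All 6 subunits of the Mcm ring were measured in microglia-like cells and were higher at 3 dpi. Mcm5 was at 3.98 CPM in sham and 58.3 CPM at 3 dpi (14.6-fold [10.5 to 20.97]), and Mcm6 at 5.64 and 69.4 CPM (12.3-fold [9.32 to 16.6]). Mcm3 had the highest sham level of the ring, 25.9 CPM, and was at 104 CPM at 3 dpi (4.003-fold [3.51 to 4.59]). Mcm2 (4.31 and 33.9 CPM), Mcm7 (8.96 and 54.8 CPM) and Mcm4 (6.09 and 25.4 CPM) had ratios between these. The ratios of the ring ran from 4.003-fold to 14.6-fold. In precursor-like cells 5 of the 6 subunits started higher than in microglia-like cells and differed less, and Mcm3 started lower and differed more. Mcm3 was at 16.2 and 105 CPM (6.46-fold [4.32 to 10.1]), Mcm6 at 29.0 and 105 CPM (3.62-fold), Mcm5 at 27.0 and 94.4 CPM (3.49-fold), Mcm7 at 37.8 and 123 CPM (3.26-fold) and Mcm2 at 15.5 and 67.2 CPM (4.33-fold), while Mcm4 (29.7 and 58.4 CPM) was within 2-fold by the rule. Of the GINS proteins, Gins2 was at 2.99 and 48.1 CPM in microglia-like and 5.40 and 63.2 CPM in precursor-like cells (11.7-fold [5.90 to 27.2]), and Gins1 stayed below 20 CPM. Cdc45 was within 2-fold by the rule in precursor-like cells (8.10 and 24.4 CPM), with a plain ratio of 3.01 [1.69 to 5.90].

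The clamp group held the member with the largest difference. Pclaf, the small protein bound to the clamp Pcna in S phase, had 0 UMIs among 9037238 in sham microglia-like cells and 6856 at 3 dpi (186 CPM), at least 559-fold higher against a floor of 3 counts in the class. In precursor-like cells it was at 24.98 and 475 CPM (19.0-fold [13.8 to 27.1]). Its partner Pcna differed little by comparison. It was at 37.4 and 71.0 CPM in microglia-like cells (1.90-fold [1.69 to 2.13]), within the 2-fold rule, and at 29.7 and 79.7 CPM in precursor-like cells (2.68-fold [1.98 to 3.72]). Pcna also acts in DNA repair, and it was at 30.3 and 29.1 CPM in oligodendrocyte-like cells and 30.5 CPM in 3 dpi neutrophil-like cells. A separate pseudogene row, Pcna-ps2, held 13 UMIs in sham and 75 at 3 dpi. The clamp loader subunits Rfc3 and Rfc4 were at 12.5 and 35.5 CPM and at 6.20 and 44.1 CPM in microglia-like cells. In precursor-like cells Rfc4 was at 27.0 and 100.9 CPM, and Rfc3 at 55.4 and 72.3 CPM, within 2-fold.

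Among the genes of DNA synthesis, Lig1, which joins the fragments of the lagging strand, was at 8.74 and 87.4 CPM in microglia-like cells (10.0-fold [8.00 to 12.7]) and 41.2 and 128 CPM in precursor-like cells (3.10-fold [2.40 to 4.07]). Fen1, the flap nuclease that trims those fragments, was at 13.7 and 44.2 CPM and at 18.2 and 47.3 CPM. Rpa2, part of the protein that coats single-stranded DNA, was at 6.09 and 24.9 CPM in microglia-like cells and 29.0 and 56.1 CPM in precursor-like cells, the latter within 2-fold. The polymerase and primase genes were below 20 CPM in microglia-like cells. In precursor-like cells Pola1 was at 13.5 and 40.4 CPM and higher. Prim1 (23.6 and 50.5 CPM, a plain ratio of 2.14) and Pold1 (15.5 and 27.7 CPM) were within 2-fold by the rule.

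All 5 genes of nucleotide supply were higher in the 3 classes. Rrm2, the S-phase subunit of ribonucleotide reductase, had 0 sham UMIs in microglia-like cells and 51.7 CPM at 3 dpi (at least 156-fold higher), and was at 8.10 and 170 CPM in precursor-like cells (20.9-fold [11.95 to 40.6]). Rrm1, the other subunit of this enzyme, was at 8.41 and 64.6 CPM (7.68-fold [6.11 to 9.78]) and at 34.4 and 119 CPM (3.46-fold [2.61 to 4.67]). Rrm1 was thus present in sham classes where Rrm2 was rare or not seen. Tk1, the S-phase thymidine kinase, was at 1.22 and 59.5 CPM in microglia-like and 6.08 and 67.5 CPM in precursor-like cells. Tyms, which makes thymidylate, was at 7.97 and 77.4 CPM and at 18.2 and 77.5 CPM, so that its 3 dpi level was nearly the same in both classes. Dut, which removes dUTP, was at 4.65 and 66.0 CPM in microglia-like and 70.2 and 193 CPM in precursor-like cells (2.75-fold [2.26 to 3.38]).

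Of the genes for entry into S phase, the transcription factor E2f1 was at 1.77 and 34.7 CPM in microglia-like cells (19.6-fold [12.01 to 34.4]) and 2.70 and 20.96 CPM in precursor-like cells. The cyclins Ccne1 and Ccne2, partners of the kinase that starts S phase, stayed below 20 CPM in both classes and so got no call. In microglia-like cells Ccne1 was at 0.11 CPM (1 UMI) and 17.2 CPM, a plain ratio of 155 [27.8 to 6140]. Ccne2 was at 0.33 CPM (3 UMIs) and 9.48 CPM there, a plain ratio of 28.6 [9.69 to 139]. In the chromatin group, the histone chaperone subunits Chaf1a and Chaf1b were at 0.33 and 22.0 CPM and at 0.66 and 22.1 CPM in microglia-like cells, and at 4.73 and 38.5 CPM and 8.10 and 30.3 CPM in precursor-like cells. Uhrf1, which carries DNA methylation over to the new strand, was at 0.66 and 27.8 CPM and at 8.78 and 60.1 CPM. Slbp, which binds the stem-loop of histone mRNAs, was the only measured member whose level in any of the 3 classes was lower at 3 dpi. It was at 87.5 and 58.5 CPM in microglia-like cells (a ratio of 0.669 [0.616 to 0.726]) and at 75.6 and 89.3 CPM in precursor-like cells.

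In endothelial-like cells the 3 highest log2 ratios, with 10 CPM added, were those of Pclaf, Rrm2 and Gins2. Pclaf had 3 UMIs in sham (0.52 CPM) and reached 126 CPM at 3 dpi (244-fold [83.3 to 1187]), Rrm2 at 0.17 CPM (1 UMI) and 39.2 CPM (227-fold [40.4 to 9005]) and Gins2 at 0.52 CPM (3 UMIs) and 38.0 CPM (73.5-fold [24.9 to 359]). Among measured members the 3 lowest log2 ratios on the same scale were those of Pcna (27.1 and 39.8 CPM), Slbp (38.5 and 57.8 CPM) and Rpa2 (12.6 and 27.4 CPM). All were within 2-fold by the rule, though the plain ratio of Rpa2 was 2.18 [1.65 to 2.89]. Mcm6 was at 26.2 and 55.8 CPM (2.13-fold [1.76 to 2.59] as a plain ratio, within 2-fold by the rule) and Tyms at 14.0 and 53.3 CPM.

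The roles made up different parts of the sum in the 2 libraries. In sham microglia-like cells the 4 chromatin genes gave 32.1% of member UMIs and the 5 nucleotide genes 8.00%, and at 3 dpi these parts were 8.55% and 20.9%. Slbp alone was 791 of the 806 sham UMIs of the chromatin genes. In sham, a larger share of precursor-like than of microglia-like cells held several members. In sham precursor-like cells the nucleotide genes already gave 19.3% of member UMIs and the clamp genes 19.3%. In 3 dpi precursor-like cells these parts were 23.2% and 27.0%.

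In sham Pclaf and Rrm2 were rare or not seen in microglia-like, endothelial-like and oligodendrocyte-like cells. They were at 24.98 and 8.10 CPM in sham precursor-like cells. At 3 dpi both differed widely between classes. Pclaf was at 475 CPM [463 to 488] in precursor-like, 281 CPM [251 to 314] in ependymal-like, 262 CPM [218 to 314] in astrocyte-like, 202 CPM [195 to 210] in fibroblast-like, 186 CPM [181 to 190] in microglia-like, 180 CPM [160 to 202] in border-associated macrophage-like and 126 CPM [118 to 135] in endothelial-like cells. It was at 64.7 CPM [60.0 to 69.8] in monocyte/macrophage-like cells, 17.3 CPM in neutrophil-like cells, 16.5 CPM in cluster 0 and 9.42 CPM in oligodendrocyte-like cells. The intervals of ependymal-like and astrocyte-like cells overlap, and that of border-associated macrophage-like cells overlaps those of both fibroblast-like and microglia-like cells. Rrm2 was at 170 CPM in precursor-like, 82.2 CPM in fibroblast-like, 51.7 CPM in microglia-like, 39.2 CPM in endothelial-like, 15.7 CPM in monocyte/macrophage-like and 4.49 CPM in oligodendrocyte-like cells. Among the same classes Pcna spanned less, from 79.7 CPM in precursor-like to 24.5 CPM in cluster 0.

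In fibroblast-like cells the highest members were Dut (203 CPM), Pclaf (202 CPM) and Tyms (83.0 CPM) and the lowest Gins1 (8.34 CPM), Mcm10 (9.84 CPM) and Cdc6 (10.9 CPM), with Mcm6 at 55.3 CPM and Pcna at 40.3 CPM. In monocyte/macrophage-like cells Pclaf (64.7 CPM), Slbp (56.0 CPM) and Lig1 (50.3 CPM) were highest and Cdc6 (2.46 CPM), Ccne2 (2.65 CPM) and Mcm10 (4.63 CPM) lowest, with Mcm6 at 34.2 CPM and Tyms at 21.9 CPM. In neutrophil-like cells Slbp (84.9 CPM), Pcna (30.5 CPM) and Fen1 (20.3 CPM) led, and Gins1, Ccne1 and Cdc6 had 1 or 2 UMIs each. Pclaf, among the 3 highest members of fibroblast-like and monocyte/macrophage-like cells, was at 17.3 CPM in neutrophil-like cells.

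**Figure D4:**
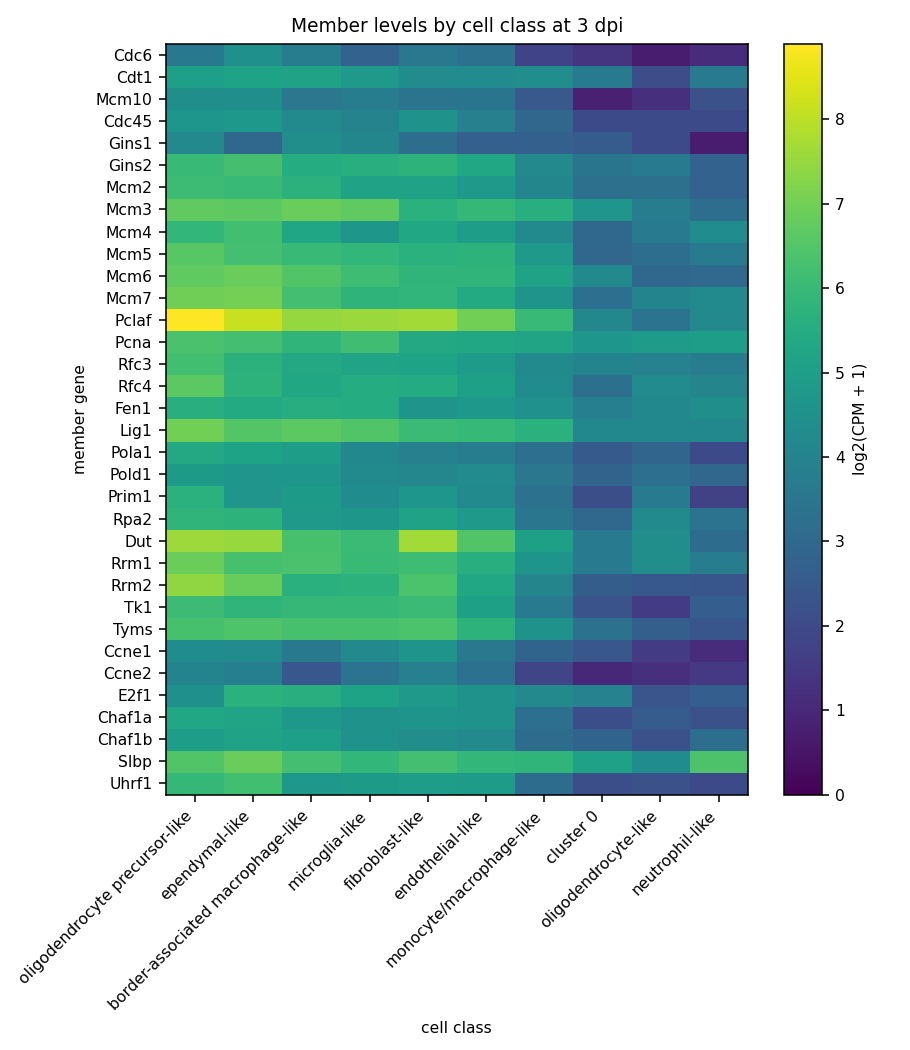
Level of each member (rows, ordered by role) in 10 classes of the 3 dpi library (columns), as log2(CPM + 1) on the colour scale. The row of Pclaf runs from 475 CPM in precursor-like cells to 9.42 CPM in oligodendrocyte-like cells, while those of Pcna and Slbp are more even in colour; levels of UMIs at the 3′ end are read along a row.

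The promoters of members were searched for letters that E2F factors bind, since many S-phase genes are known E2F targets. The windows are those of RefSeq on GRCm38.p6, from 250 bases before to 50 after a gene's start, and 30 of the 34 members had one. The letters TTTCCCGC, TTTGGCGC, TTTCGCGC and TTTGCCGC were searched on both strands, and matches may overlap. A match was found for 12 of 30 members (40%) for 17 of 49 other DNA replication genes (34.7%) and for 560 of 15408 genes of the tables with a window (3.63%). In the 250 bases before the start alone, the shares were 23.3%, 20.4% and 3.00%. Of the 16 members higher in all 3 classes, 15 had a window and 6 a match, and of the other 18 members 15 had a window and 6 a match. To let these letters be read beside the levels, 4 stretches with a match and 2 without are shown; positions count from the first transcribed base as 0, and capitals mark the match. Pclaf (chr9:65890206-65890325, + strand), with the largest difference in microglia-like cells, has its match at -5, across the start. Mcm5 (chr8:75109268-75109387, + strand) has overlapping matches of opposite strand at -153 and -149, and Mcm6 (chr1:128359706-128359825, - strand) the same arrangement at -110 and -106 with another at -47. Cdc6 (chr11:98907921-98908040, + strand) has a match at -138, although its level was low in every class. Pcna (chr2:132253181-132253300, - strand) and Slbp (chr5:33652575-33652694, - strand), the members that differed least in microglia-like cells, have none of these letters in their windows, which says nothing of the factor itself.
Pclaf: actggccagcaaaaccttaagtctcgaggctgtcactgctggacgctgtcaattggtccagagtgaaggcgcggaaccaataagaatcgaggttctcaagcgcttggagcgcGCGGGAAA
Mcm5: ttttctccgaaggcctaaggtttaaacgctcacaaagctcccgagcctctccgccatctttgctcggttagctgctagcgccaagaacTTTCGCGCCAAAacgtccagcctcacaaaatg
Mcm6: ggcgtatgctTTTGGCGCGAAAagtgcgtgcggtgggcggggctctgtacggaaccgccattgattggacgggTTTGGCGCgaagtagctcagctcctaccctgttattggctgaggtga
Cdc6: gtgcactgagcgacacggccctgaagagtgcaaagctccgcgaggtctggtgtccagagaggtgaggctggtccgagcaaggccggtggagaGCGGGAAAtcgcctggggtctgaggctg
Pcna: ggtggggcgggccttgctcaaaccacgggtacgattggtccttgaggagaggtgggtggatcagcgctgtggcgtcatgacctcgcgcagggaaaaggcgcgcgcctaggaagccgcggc
Slbp: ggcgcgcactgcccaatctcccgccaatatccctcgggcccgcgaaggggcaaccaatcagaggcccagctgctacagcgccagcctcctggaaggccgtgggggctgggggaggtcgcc

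In the same windows TTTGAA, the core of the element bound in genes of mitosis, were found in 27 of 35 G2 and mitosis genes (77.1%), in 3 of 30 members (10%) and in 16.3% of all genes, and in the 250 bases before the start alone in 37.1%, 10% and 14.7%. The E2F letters were found in 2 of those 35 genes (5.71%). CCAAT was found in 60% of members, 77.1% of G2 and mitosis genes and 42.0% of all genes.

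Members were seen in the same cells. In 3 dpi microglia-like cells at 1000 UMIs, Pclaf was seen in 26.7% [22.6 to 31.2] of cells that held 3 or more other members and in 7.08% of cells that held none of the others. For Mcm3 the shares were 17.3% and 4.64%, for Lig1 16.4% and 3.03%, and for Mcm7 11.6% and 1%. Pcna (11.7% and 3.54%) and Slbp (11.3% and 2.33%) followed the same pattern within the class, although neither was called higher at 3 dpi by summed level. In precursor-like cells Pclaf was seen in 55.1% [48.6 to 61.4] and 11.9%, Dut in 26.5% and 3.56%, and Rrm2 in 23.0% and 2.01%. In monocyte/macrophage-like cells Pclaf was in 24.3% [14.8 to 36.0] of 70 cells with 3 or more other members and 0.688% of 1308 cells with none. Cells with many members also held more UMIs before thinning, as given below.

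Genes of G2 and mitosis, the phases after DNA synthesis, were used to see how far the same cells expressed them. Of 40 such genes 2 or more were seen in 63.1% [58.7 to 67.3] of the 509 3 dpi microglia-like cells with 3 or more members and in 32.1% of the others of the class. In precursor-like cells the shares were 84.2% [79.4 to 88.2] and 40.3%, in fibroblast-like cells 68.8% [59.9 to 76.8] and 30.7%, in endothelial-like cells 65.7% [47.8 to 80.9] and 20.98%, and in monocyte/macrophage-like cells 53.8% [42.2 to 65.0] and 4.13%. In sham microglia-like cells 7 cells passed each count and 0 passed both. Of 3 dpi cells, 45.6% [43.7 to 47.6] of microglia-like, 60.4% [57.0 to 63.7] of precursor-like, 43.8% [40.0 to 47.7] of fibroblast-like, 29.1% [24.3 to 34.3] of endothelial-like and 8.27% [7.06 to 9.62] of monocyte/macrophage-like cells passed at least 1 of the 2 counts. In sham these shares were 0.668% of microglia-like, 7.94% [5.04 to 11.8] of precursor-like and 0.962% of endothelial-like cells. At 3 dpi 8.75% [6.87 to 10.9] of neutrophil-like and 4.15% [3.25 to 5.22] of oligodendrocyte-like cells also passed at least 1 count. The monocyte/macrophage-like share of 8.27% lay within the interval of neutrophil-like cells, but the 2 shares differed in make-up. Of 789 neutrophil-like cells, 6 passed the count of members, 64 that of G2 and mitosis genes and 1 both. Of 1849 monocyte/macrophage-like cells these numbers were 80, 116 and 43. The 2 counts have different backgrounds: 2.64% of sham oligodendrocyte-like cells passed the count of G2 and mitosis genes, a list that holds Anln, which was at 437 CPM in those cells.

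Depth moved with these results. In the 3 dpi library, cells with 3 or more members had a median of 15899 UMIs before thinning and the other cells 13200.5 in the microglia-like class, 14157 and 10478 in the precursor-like class, 29730 and 15447 in the endothelial-like class, 21252 and 15509 in the fibroblast-like class and 10402 and 4768 in the monocyte/macrophage-like class. When the cells of a class were split by depth into 3 equal groups, each cell thinned to the same 1000 UMIs, the share from the shallowest to the deepest group was 10.8%, 21.5% and 27.5% in microglia-like cells, 19.4%, 37.6% and 43.8% in precursor-like cells and 7.73%, 20% and 29.1% in fibroblast-like cells. In endothelial-like cells the share was 1.75% [0.213 to 6.19], 11.5% [6.27 to 18.9] and 17.7% [11.2 to 26.0]. In monocyte/macrophage-like cells the share was 1.13%, 0.974% and 10.9%, so that 67 of the 80 cells were in the deepest group.

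**Figure D5:**
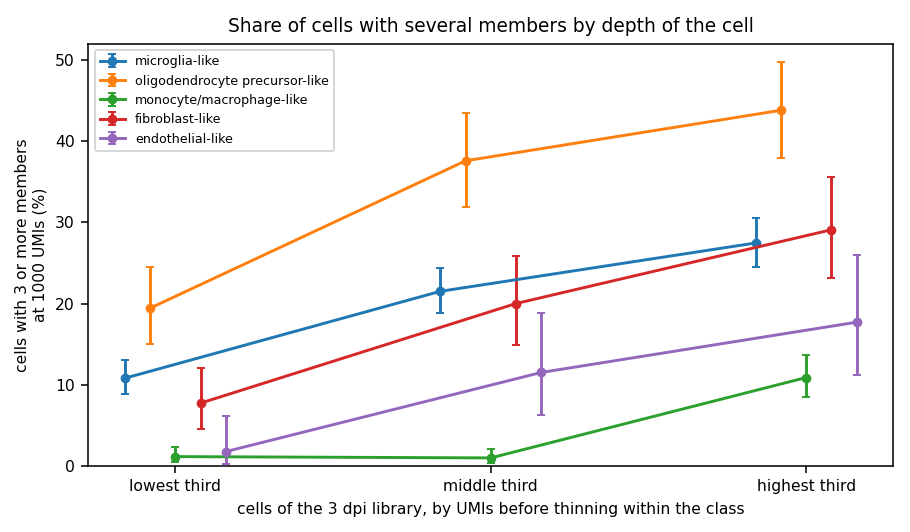
Share of 3 dpi cells with 3 or more members at 1000 UMIs (y axis, %) in 3 equal groups of each class by the UMIs of the cell before thinning (x axis); lines are classes and bars 95% Clopper-Pearson intervals. In microglia-like cells the share goes from 10.8% to 27.5%, and in monocyte/macrophage-like cells only the deepest group stands above the others, at 10.9%.

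Most 3 dpi microglia-like cells were deeper than sham ones, so both libraries were also compared over cells of 3000 to 8000 UMIs, a range chosen after the depths had been seen. In that range the share of microglia-like cells with 3 or more members was 0.401% [0.147 to 0.871] in sham (1495 cells) and 7.71% [5.23 to 10.9] at 3 dpi (376 cells). It was 5.18% [2.79 to 8.69] (251 cells) and 19.4% [14.5 to 25.1] (227 cells) for precursor-like cells and 0.295% [0.0357 to 1.06] (679 cells) and 3.12% [0.381 to 10.8] (64 cells) for endothelial-like cells. The 3 dpi shares were lower than over all depths, and the intervals of the endothelial-like shares overlap. Depth was still unequal within the range, with medians of 4145 and 6434 UMIs in microglia-like, 5212 and 5782 in precursor-like and 4116 and 5571.5 in endothelial-like cells. The summed member level had log2 ratios of 1.31, 1.31 and 0.31. In microglia-like cells 8 of 13 measured members were higher (Mcm5, Mcm6, Pclaf, Rrm1, Tk1, Dut, E2f1 and Lig1) and Slbp lower (88.8 and 37.7 CPM), where 8.1% of 6009 genes were higher and 10.2% lower. These 8 were all under 20 CPM in sham and so could not be called lower. Of the members at 20 CPM in sham, Mcm3 (25.9 and 48.5 CPM) and Pcna were within 2-fold, Slbp was lower and none was higher. In precursor-like cells 10 were higher (Mcm3, Mcm5, Mcm6, Gins2, Pclaf, Rfc4, Lig1, Rrm2, Tk1 and Uhrf1) and 0 lower (4.48% and 5.03% of 8054 genes). Of these 10, only Mcm5, Mcm6, Rfc4 and Lig1 were at 20 CPM in sham. Mcm2, Mcm4, Mcm7, Pcna, Tyms, Rrm1, Dut, Rfc3, Rpa2, Fen1, Prim1, Pola1, Pold1 and Slbp were within 2-fold there. In endothelial-like cells only Pclaf, under 20 CPM in sham, was higher (5.33% of 6885 genes). Mcm3, Mcm6, Pcna, Dut, Rfc3, Lig1 and Slbp were within 2-fold in that class, and the other members were not measured. Some members had a log2 ratio of the other sign in this range than over all depths. Of the members measured over all depths, these were Pcna in microglia-like cells (36.8 and 34.3 CPM), Rfc3 and Slbp in precursor-like cells, and 7 of 23 in endothelial-like cells (Mcm2, Mcm4, Tyms, Rpa2, Fen1, Chaf1a and Slbp). Of these 7, 3 had been called higher over all depths, and 6 had 3 UMIs or fewer at 3 dpi in this range. Cells of this range are the shallower part of the 3 dpi classes, and what sets the depth of a cell was not tested.

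The markers of other cell types were set beside these shares. At equal depth the 10 microglia markers summed to 5411 CPM in 3 dpi microglia-like cells with 3 or more members and 5674 CPM in the others, and the 9 monocyte/macrophage markers to 1652 and 1511 CPM. In precursor-like cells the 9 markers of that class summed to 4182 and 5494 CPM. In endothelial-like cells the 10 endothelial markers summed to 7429 and 11872 CPM and the 10 fibroblast markers to 714 and 131 CPM; the part of fibroblast RNA or of doublets in the 35 endothelial-like cells was not tested. In fibroblast-like cells the 10 fibroblast markers summed to 14776 and 21865 CPM.

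Cells could be assigned to male or female mice by sex-linked genes, which splits a library by groups of animals, but most cells could not be assigned: 20.7% of 3 dpi microglia-like, 21.5% of precursor-like, 20% of endothelial-like and 17.3% of fibroblast-like cells were. At 3 dpi the share with 3 or more members was 21.5% in male and 21.6% in female microglia-like cells. It was 24.1% and 32.8% in precursor-like cells, 9.52% and 17.0% in endothelial-like cells and 11.7% and 24.1% in fibroblast-like cells. These shares rest on 149 male and 379 female microglia-like, 54 and 128 precursor-like, 21 and 47 endothelial-like and 60 and 54 fibroblast-like cells. Each sex is a pool of 5 mice, so the differences carry no test.

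Genes of the pathway outside the 34 were counted by the same rule. Of 64 other replication and repair genes, microglia-like cells had 18 of 32 measured higher and 1 lower, precursor-like cells 13 of 41 higher and 0 lower, endothelial-like cells 7 of 31 higher and 1 lower and oligodendrocyte-like cells 0 of 21 higher or lower, beside the shares of all genes given above. Their median log2 ratios were 1.16, 0.72, 0.50 and -0.01. In microglia-like cells the highest were cyclin A2 (Ccna2, 0 UMIs and 57.6 CPM, at least 174-fold higher), Gmnn, which blocks a new round of loading (5.31 and 73.7 CPM), and the histone chaperone Asf1b (0.66 and 40.6 CPM). The lowest were the mitochondrial thymidine kinase Tk2 (39.7 and 8.61 CPM), Orc4 (29.9 and 16.9 CPM) and Samhd1 (54.6 and 35.1 CPM), which breaks down nucleotides. In precursor-like cells Gmnn (5.40 and 82.4 CPM), Ccna2 (13.5 and 102 CPM) and Clspn (11.5 and 80.5 CPM) were highest and Orc4, Samhd1 and Rrm2b lowest. In endothelial-like cells Ccna2 (1 UMI and 51.4 CPM), Clspn (0 UMIs and 24.7 CPM, at least 47.7-fold higher) and Dtymk (30.4 and 110 CPM) were highest, and Samhd1 (100 and 36.5 CPM) and Rrm2b were among the lowest.

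A list of 21 genes held cell cycle brakes and genes linked to them, among them Mdm2, Lin52 and Lin54. Of these 21, 13 were measured in microglia-like cells, with 2 higher and 4 lower. Precursor-like cells had 4 of 17 higher and 2 lower and endothelial-like cells 0 of 15 higher and 5 lower. Over all measured genes the shares higher and lower were 11.7% and 16.4%, 7.25% and 13.7%, and 8.33% and 13.4% in these classes. The antiproliferative gene Btg2 was at 3384 and 260 CPM in microglia-like, 616 and 105 CPM in precursor-like and 1745 and 454 CPM in endothelial-like cells. Cdkn1c, an inhibitor of cyclin-dependent kinases, was at 23.0 and 1.33 CPM, 70.2 and 30.6 CPM, and 162 and 27.9 CPM. In the other direction Cdkn2c (3.65 and 33.5 CPM) and Cdkn2d (27.6 and 88.1 CPM) were higher in microglia-like cells, and Cdkn1a (139 and 474 CPM), Ccng1 (19.6 and 99.3 CPM) and Cdkn2a (9.45 and 48.2 CPM) in precursor-like cells. Of the 40 G2 and mitosis genes, 35 of 35 measured were higher in microglia-like, 40 of 40 in precursor-like, 28 of 29 in endothelial-like and 0 of 3 in oligodendrocyte-like cells.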

How the data were processed

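Single-cell RNA was measured in 2 libraries, 1 per group. Per the labels, the libraries were made with the 10X 3′ kit v.3, and the submitters' processing notes name Cell Ranger, Seurat and the build GRCh38 without versions or roles; the symbols are those of mouse genes. The deposited values are raw UMI counts per gene symbol and barcode. No row was mitochondrial (0 of 22480), so no mitochondrial filter was run. Cells needed 200 genes and 500 UMIs, which left 10126 sham and 13584 3 dpi cells. Doublets were scored against 2 simulated doublets per cell, and 820 and 1476 cells with the highest scores (0.8% per 1000 cells) were removed, a threshold that 65.9% and 76.3% of the simulated ones passed; the members were at 270.3 and 270.0 CPM in removed and kept sham cells and 1142 and 1160 CPM at 3 dpi. The 9306 and 12108 kept cells were clustered together by the Leiden method at resolution 1, on 15 neighbours and 30 principal components, without cell cycle, histone, ribosomal and sex-linked genes. This gave 35 clusters, of which 6 stayed unnamed. Clusters were named by their marker genes (highest mean log2 fold, 3 or more markers 2-fold higher). The names are rebuilt and therefore written X-like.

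Levels are sums of UMIs over the cells of a class in a library, as CPM with exact Poisson intervals; ratios have exact conditional intervals, shares Clopper-Pearson intervals. Intervals of sums treat UMIs as independent and leave out the spread between cells. CPM of 3′ UMIs is not scaled by gene length. The 4 classes that reached 50 cells in each library were compared. Where a class has no UMI of a gene, 3 counts stand in for it as the floor. Thinning drew 1000 UMIs a cell without replacement. All 34 members are accounted for; values are given for each member at 20 CPM in microglia-like and precursor-like cells, and elsewhere for the 3 highest, the 3 lowest and Pcna, Mcm6, Tyms, Rrm2 and Pclaf. The members, lists and rules were chosen with earlier results of these data known, and the classes come from the same data. The scripts were tested on simulated data. The median log2 ratio that median-of-ratios scaling takes out was -0.19, -0.33, -0.32 and -0.04 in microglia-like, precursor-like, endothelial-like and oligodendrocyte-like cells. Such scaling raises the 3 dpi levels, and the log2 ratios by at most these sizes. Clustering used leidenalg 0.10.2 and igraph 0.11.9. Neighbours came from scikit-learn 1.9.0. The rest ran in Python 3.11.15 with pandas 2.3.3, numpy 2.4.6 and scipy 1.17.1, and figures were drawn with matplotlib 3.10.9.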

Additional observations from a re-analysis of the deposited data

Results flagged for a closer look

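For 2 members the ratios of 2 classes lay on opposite sides of 1, each with a counting interval that leaves out 1; the difference between classes was not tested. Rpa2 had a log2 ratio of -0.13 in oligodendrocyte-like cells and of 1.12, 0.76 and 0.73 in microglia-like, precursor-like and endothelial-like cells. Slbp had a log2 ratio of -0.51 in microglia-like and 0.49 in endothelial-like cells. In cells of 3000 to 8000 UMIs both were below 0 for Slbp (-1.05 and -0.29).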

How the results depend on the processing

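No paired analysis was possible because each group had 1 library, and no replicate could be left out. Among shares, summed levels, their log2 ratios and counts of members, none changed direction under an alternative, 251 moved less than their counting interval allows or stayed within 1.5 times, and 105 moved. For numbers of measured members and their median log2 ratios, 86 stayed and 18 moved. In what follows values are in the order microglia-, precursor-, endothelial-, fibroblast- and monocyte/macrophage-like, shares are of cells with several members and levels are summed member CPM. The cause of each move was not tested beyond what the setting itself changes.

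With 2 or more members counted, the 3 dpi shares were 33.9%, 49.9%, 20%, 32.4% and 8.44% and the first 3 sham shares 3.15%, 11.6% and 4.29%. With 5 or more they were 4.85%, 14.98%, 2.06%, 4.85% and 1.24%, and 0%, 3.25% and 0%. Thinned to 2000 UMIs they were 37.1%, 56.1%, 24.6%, 34.05% and 7.06%, and 1.76%, 10.7% and 2.63%. Thinned to 500 UMIs they were 6.12%, 15.6%, 2.92%, 7.26% and 1.18%, and 0.0919%, 2.47% and 0%. Without Pcna, Slbp, Rpa2, Dut and Mcm6 the 3 dpi shares were 14.1%, 27.6%, 7.06%, 12.9% and 2.76%, and the sham microglia-like share 0.0477%. With all cells thinned to 1000 UMIs before summing, 8 members were higher in endothelial-like cells.

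In cells of 3000 to 8000 UMIs, an alternative chosen after seeing the data, the 3 dpi shares were 7.71%, 19.4%, 3.125%, 4.29% and 1.16%, the 3 dpi levels 686, 1542, 382, 532 and 324 and the sham precursor-like level 621. The log2 ratios of the summed levels were 1.31, 1.31 and 0.31, with 8, 10 and 1 members higher and 1 lower in microglia-like cells. Most members were not measured in endothelial-like cells of this range. Single members did change sign there: 1 of 25 measured in microglia-like (Pcna), 2 of 30 in precursor-like (Rfc3 and Slbp) and 7 of 23 in endothelial-like cells, among them 3 called higher over all depths (Mcm2, Tyms and Chaf1a).

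In female-derived cells the 3 dpi shares were 21.6% (microglia-like), 17.0% (endothelial-like), 24.1% (fibroblast-like) and 5.47% (monocyte/macrophage-like), the sham endothelial-like share 0%, the 3 dpi levels 1681, 2785, 1394, 1778 and 829.96 and the sham microglia-like and precursor-like levels 309 and 918. In male-derived cells the precursor-like and fibroblast-like shares were 24.1% and 11.7%, the sham shares 0%, 9.52% and 0%, the 3 dpi levels 1480, 2504, 1147, 1212 and 782 and the sham levels 314, 532 and 321.

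With doublets kept, the sham endothelial-like share was 0.608% and the levels 2423 (precursor-like; 630.1 in sham), 1566 (fibroblast-like) and 735 (monocyte/macrophage-like). With cell cycle genes kept in the clustering, the microglia-like share and level were 22.5% and 1705 and the monocyte/macrophage-like ones 3.02% and 518. With clusters 0 and 32 counted as monocyte/macrophage-like, also chosen after seeing the data, that class had 2.68% and 449. With free RNA subtracted, its share was 2.98% and the levels of microglia-, precursor- and fibroblast-like cells 1559, 2773 and 1659.9. A stricter cell filter gave a sham precursor-like share of 3.16% and levels of 1547, 2657 and 1221 in the first 3 classes and 769 in monocyte/macrophage-like cells. Resolution 2 gave levels of 2666 (610.1 in sham) in precursor-like and 783 in monocyte/macrophage-like cells.

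With 1 library a group, no spread between animals could be measured. The sham shares rest on 7, 16 and 2 cells with several members in microglia-, precursor- and endothelial-like cells.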

Other observations

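Some cells outside the compared classes also held many members at 3 dpi. In astrocyte-like cells Pclaf (262 CPM), Rrm2 (167 CPM) and Dut (154 CPM) were the highest members, and in ependymal-like cells Pclaf (281 CPM), Dut (184 CPM) and Mcm7 (129 CPM). Cluster 23, which stayed unnamed and was led by haemoglobin genes and the bone gene Bglap beside Col1a1, held 3 or more members in 10.9% [6.66 to 16.4] of 175 cells. Oligodendrocyte-like cells, with no member called higher, were not still in all cell cycle genes: Cdkn1c was at 305 CPM in sham and 87.8 CPM at 3 dpi, and the stress gene Gadd45a at 39.3 and 110 CPM.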
